A study of Homo sapiens with 4 samples.

Results

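The genes of YAP, TEAD and their targets were followed in the accessible chromatin of SKBR3 cells: the co-activator genes YAP1 and WWTR1, the factor genes TEAD1, TEAD2, TEAD3 and TEAD4, and the target genes CCN1, CCN2, AMOTL2 and ANKRD1. Peaks of the 4 deposited lists that overlapped by 1 bp or more were joined into sites, and a site belonged to a gene when it lay within 100 kb of any of its transcript starts in GENCODE release 44. These 10 genes had 489 of the 307691 sites of the series. No site was in range of more than 1 of them. The chosen distance set the limit of the windows: the farthest site inside lay 98971 bp from a TEAD3 start, with percentiles of 38.0 and 16.0 in the untreated lists and no TWEAK peak, and the nearest site outside lay 100330 bp from a TEAD4 start, with a peak in untreated replicate 2 alone.

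SKBR3 is an established breast cancer line with an amplified ERBB2 gene, the gene of the HER2 receptor. One group of 2 libraries was untreated. The other group of 2 libraries had received TWEAK, a cytokine of the TNF family that binds the receptor Fn14, at 10 ng/ml for 48 h, with fresh TWEAK after 24 h. The labels give a starvation of 8 h for all 4 libraries, untreated ones included. All 4 came from the same cell line, so the groups are cultures of 1 line.

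In the Hippo pathway, a kinase cascade keeps the co-activators YAP and TAZ, the product of WWTR1, phosphorylated and out of the nucleus. When the cascade is off, YAP and TAZ enter the nucleus and act through the DNA-bound TEAD factors, which read the sequence GGAATG and often sit beside AP-1 at distal enhancers. CCN1, CCN2, AMOTL2 and ANKRD1 are commonly used readouts of this activity, and in breast epithelium the pathway is known for linking cell contact and tension to growth.

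Some regulatory sequences are shown first: the best-ranked distal sites of CCN2 and AMOTL2, and some of the sites whose values differed between the groups. The capitals mark matches to the TEAD motif GGAATG, or its complement CATTCC on the other strand, to the AP-1 motif TGAGTCA, or its complement TGACTCA, and to the NF-kB consensus. Each sequence shown holds a match, whereas the site with the largest upward percentile gap, described below under AMOTL2, held none and is not shown. In the CCN2 upstream site, the TEAD match runs straight into an AP-1 match.
CCN2 upstream site, 3.51 kb before the start, hg38 chr6:131954785-131954985, plus strand: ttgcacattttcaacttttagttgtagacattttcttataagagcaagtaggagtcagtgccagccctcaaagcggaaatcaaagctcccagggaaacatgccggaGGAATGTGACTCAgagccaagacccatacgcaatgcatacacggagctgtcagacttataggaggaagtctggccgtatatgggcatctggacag
AMOTL2 upstream site, 6.58 kb before the 5′ end, hg38 chr3:134381956-134382156, plus strand: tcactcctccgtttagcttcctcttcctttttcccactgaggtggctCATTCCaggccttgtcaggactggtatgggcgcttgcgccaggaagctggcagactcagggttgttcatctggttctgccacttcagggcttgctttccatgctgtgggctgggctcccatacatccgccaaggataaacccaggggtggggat
AMOTL2 downstream site, TEAD and AP-1 matches, hg38 chr3:134348676-134348876, plus strand: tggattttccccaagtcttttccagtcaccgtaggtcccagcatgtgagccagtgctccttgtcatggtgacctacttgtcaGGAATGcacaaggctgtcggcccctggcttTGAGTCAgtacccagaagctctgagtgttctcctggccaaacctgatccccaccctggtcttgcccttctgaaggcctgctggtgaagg
CCN1 downstream site, TEAD match, hg38 chr1:85611993-85612193, plus strand: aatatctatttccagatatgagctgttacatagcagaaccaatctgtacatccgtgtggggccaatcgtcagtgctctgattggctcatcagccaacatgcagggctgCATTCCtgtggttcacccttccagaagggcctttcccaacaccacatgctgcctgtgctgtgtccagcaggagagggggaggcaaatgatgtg
WWTR1 intronic site, 2 NF-kB matches, hg38 chr3:149551577-149551777, plus strand: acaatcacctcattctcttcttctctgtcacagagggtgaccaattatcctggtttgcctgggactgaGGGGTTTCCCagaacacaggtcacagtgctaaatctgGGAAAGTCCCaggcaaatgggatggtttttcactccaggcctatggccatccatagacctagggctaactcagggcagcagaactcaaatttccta
TEAD2 upstream site, TEAD match, hg38 chr19:49443697-49443897, plus strand: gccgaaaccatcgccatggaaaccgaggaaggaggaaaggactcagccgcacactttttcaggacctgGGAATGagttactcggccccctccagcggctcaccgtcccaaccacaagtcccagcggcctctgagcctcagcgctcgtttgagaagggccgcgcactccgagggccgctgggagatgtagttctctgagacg
The promoters of CCN2 and ANKRD1 are shown because each held more than 1 TEAD match in the 250 bases before the start. These sequences are from RefSeq, whose promoter table held 7 of the 10 genes; TEAD1, TEAD4 and CCN1 were not matched.
CCN2 promoter, GRCh38.p14 chr6:131951373-131951622, minus strand: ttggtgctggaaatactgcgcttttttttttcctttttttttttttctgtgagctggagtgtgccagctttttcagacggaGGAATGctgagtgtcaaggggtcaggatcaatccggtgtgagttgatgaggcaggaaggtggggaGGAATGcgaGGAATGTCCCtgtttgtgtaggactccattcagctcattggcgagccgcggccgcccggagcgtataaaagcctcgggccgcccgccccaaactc
ANKRD1 promoter, GRCh38.p14 chr10:90921088-90921337, minus strand: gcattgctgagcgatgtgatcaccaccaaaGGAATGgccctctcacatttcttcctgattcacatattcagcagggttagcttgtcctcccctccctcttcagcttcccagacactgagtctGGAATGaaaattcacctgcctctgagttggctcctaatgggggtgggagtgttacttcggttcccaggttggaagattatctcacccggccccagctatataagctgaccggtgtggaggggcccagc
The CCN2 matches began 169, 104 and 95 bases before the start, and the last of them overlapped a match to the NF-kB consensus. The ANKRD1 matches began 220 and 128 bases before the start. YAP1 held 1 match, 162 bases before its start, and AMOTL2 held 1, 69 bases before. The 7 matched genes had 10 promoters, of which 4 held the TEAD motif, 2 (one of CCN2 and one of AMOTL2, the latter 184 bases before a start) the NF-kB consensus and 0 the AP-1 motif. Of all 35116 RefSeq promoters, 11.9% held the TEAD motif in this window, 4.20% held the AP-1 motif and 9.96% the NF-kB consensus.

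A pair of values describes each peak. The first is the percentile of its deposited value within its own list, where 100 is the strongest peak; percentiles still move with the length and depth of a list. The second is its pileup, the number of reads stacked at the peak as recovered from that value, divided by the background pileup of the list. The lists held 195315 to 228644 peaks on chromosomes 1 to 22 and X, and their background pileups were 3.59 and 2.24 in untreated replicates 1 and 2, and 2.63 and 1.85 in TWEAK replicates 1 and 2. Their lowest pileups were 10, 7, 8 and 7 in the same order, so a missing peak does not mean closed chromatin. Peaks of a list all had the same width, and a site without a peak in a library could lie beside a listed peak of that library, for which the gap is given. A peak of lower value can mean fewer cells with the site open or fewer open copies per cell, which cannot be told apart here. All 8 of the 8 luminal and HER2 marker genes examined had a promoter peak in all 4 lists. Of 6 genes that define other cell types, 3 (CDH5, COL1A2 and PDGFRB) also had one in all 4, PECAM1 had one in replicate 1 of each group, PTPRC in TWEAK replicate 1 alone, and CD3E in none.

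Near the 10 genes, 337 and 383 peaks were called in the untreated lists and 346 and 325 in the TWEAK lists. As a share of each list, these peaks made up 0.162% and 0.168% without TWEAK and 0.158% and 0.166% with it. The groups overlapped, and the mean share was 0.165% ± 0.00406 in untreated and 0.162% ± 0.00560 in TWEAK libraries (SD, n = 2 each; exact two-sided permutation test, p = 0.667, where 2 against 2 libraries cannot give a p under 0.333). The difference was within the spread between replicates.

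**Figure D1:**
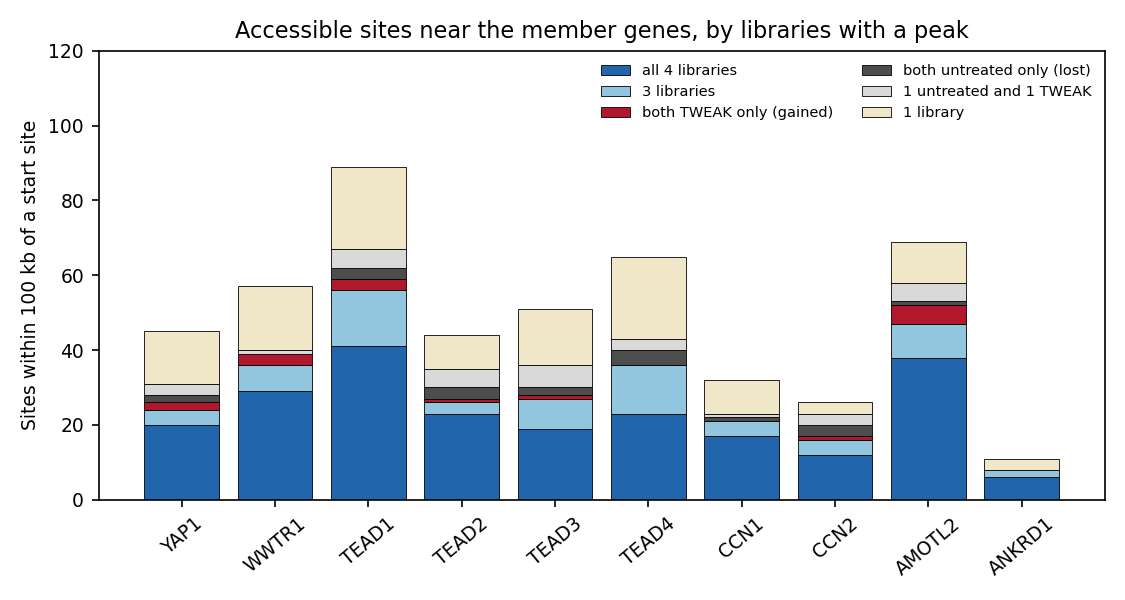
Number of sites within 100 kb of a transcript start of each gene (y axis), split by the libraries that had a peak there (colours). TEAD1 had the most sites, 89, and ANKRD1 the fewest, 11; gained and lost sites were thin layers in every gene that had them.

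Of the 489 sites, 228 had a peak in all 4 libraries (shared sites), 69 in 3, 32 in 1 untreated and 1 TWEAK library, and 125 in 1 library. A site was called gained when both TWEAK lists and neither untreated list had a peak, and lost in the opposite case. Gained sites numbered 16, or 3.27% of the sites of the 10 genes, against 3.6% of all sites of the series. Lost sites numbered 19, or 3.89%, against 3.79% of all sites. Both shares were close to those of the whole series, so these counts do not set the 10 genes apart. The co-activator genes had 5 gained and 2 lost sites of 102, the TEAD genes 5 and 12 of 249, and the target genes 6 and 5 of 138. These counts include sites nearer to other genes. The member was the nearest coding gene at 286 of the 489 sites (58.5%), at 9 of the 16 gained and at 9 of the 19 lost ones. AMOTL2 had the most gained sites, 5, against 1 lost, and TEAD4 the most lost, 4, against none gained; these are descriptions of single genes and were not tested.

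Sites shared by all 4 libraries made up 46.6% of the sites. Their median percentile was 73.8 and 77.5 in the untreated lists and 74.7 and 71.4 in the TWEAK lists, higher than the medians of 66.6, 69.3, 68.2 and 64.1 over all shared sites in the same order. The group means were 75.6 ± 2.59 and 73.1 ± 2.37 (SD, n = 2 each), a difference of -2.57 percentile points that did not pass the exact permutation test (p = 0.667). By pileup over background, the medians were 16.7 and 21.2 without TWEAK and 20.3 and 21.7 with it, with means of 19.0 ± 3.20 and 21.0 ± 0.947 and a difference of 2.0 in the other direction (exact permutation test, p = 0.667). The groups overlapped on both scales.

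Site by site, the direction also depended on the scale. By percentile, 26 of the 228 shared sites (11.4%) were higher in both TWEAK lists than in both untreated lists and 88 (38.6%) were lower, against 15.8% and 35.4% of all 131751 shared sites. By pileup over background, 68 (29.8%) were higher and 30 (13.2%) lower, against 34.8% and 12.2% of all. The scales are derived from the same deposited value and are not independent measures. On both scales at once, 26 sites (11.4%) were higher and 30 (13.2%) lower, against 15.7% and 12.2% of all shared sites. These were all of the sites higher by percentile and all of those lower by pileup over background. The joint call is therefore the stricter of the 2 single calls and adds no further evidence. The shares near the 10 genes again sat close to the background. Across all shared sites the median ratio of TWEAK to untreated pileup over background was 1.10, a shift of 0.14 on the log2 scale, so the ratios given for single sites below are relative to it.

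**Figure D2:**
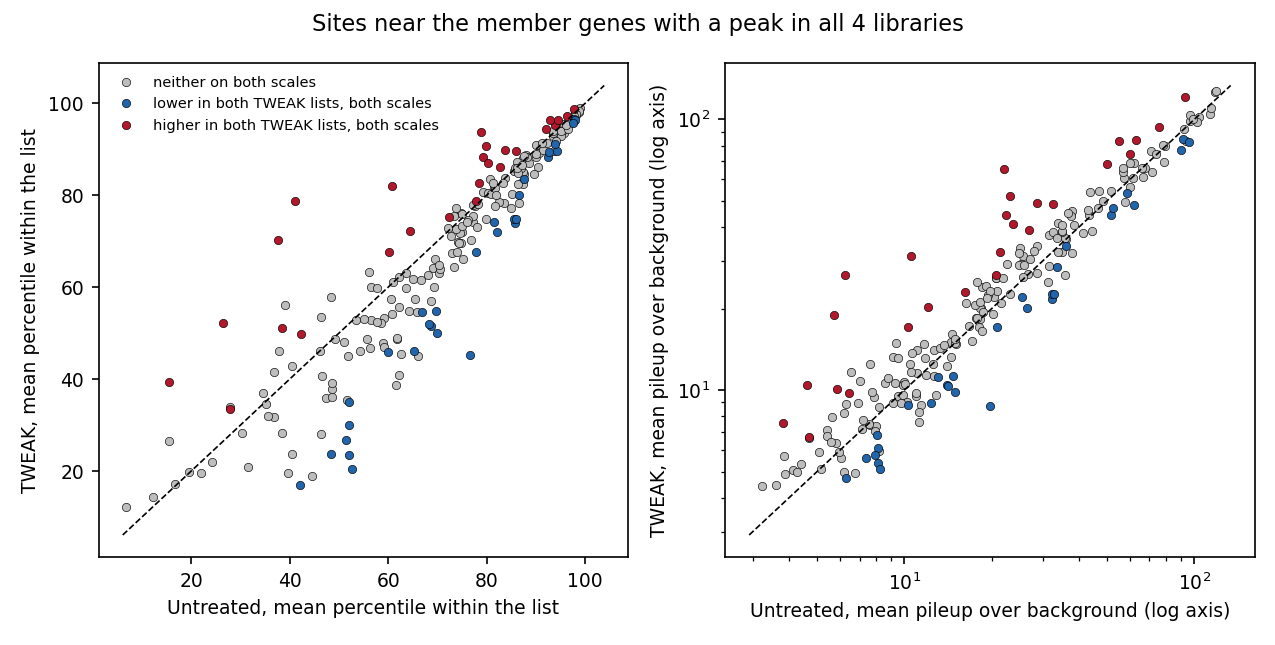
Mean of the 2 TWEAK libraries (y axis) against the mean of the 2 untreated libraries (x axis) at the 228 shared sites, as percentile within the list (left) and as pileup over background on log axes (right); the dashed line marks equal values. The 26 red sites were higher and the 30 blue sites lower in both TWEAK lists on both scales, and most of the largest distances from the line were at low and middle percentiles.

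Most of these genes had a promoter site of high percentile in both groups, and no such share over the promoters of all genes is given for comparison. A promoter site, with its centre within 1 kb of a start of the gene, was found 37 times, of which 18 were shared by all 4 libraries, 9 were in 2 or 3 libraries and 10 in 1. In order, the best-ranked shared promoter site lay at percentiles of 97.7, 98.6, 98.1 and 96.9 for CCN2 (untreated 1, untreated 2, TWEAK 1, TWEAK 2), 98.3, 97.0, 96.8 and 96.2 for CCN1, 97.6, 98.0, 96.3 and 96.3 for TEAD4, and 96.3, 97.0, 95.8 and 96.1 for AMOTL2. Neighbours among these 4 overlapped in range. WWTR1 followed with 93.0, 95.0, 94.1 and 94.7, TEAD1 with 96.3, 93.9, 92.6 and 93.4, and YAP1 with 92.2, 92.5, 91.1 and 91.6. The range of TEAD1 overlapped those of WWTR1, AMOTL2 and CCN1 and met that of TEAD4 at 96.3, and YAP1 lay below all of these. These 7 promoters were above the 90th percentile in all 4 lists. The other 3 promoters were weaker, with 73.4, 74.8, 71.2 and 68.4 at TEAD3, 57.5, 57.9, 63.8 and 56.0 at ANKRD1, and 45.8, 63.0, 44.9 and 47.4 at TEAD2. ANKRD1 and TEAD2 overlapped in range, and TEAD3 lay above both. Just outside the 1 kb limit, a site at the DKKL1 promoter 1.32 kb before a TEAD2 start had percentiles of 96.6, 96.5, 97.0 and 94.8. Relative to the shift of all shared sites, the ratio of TWEAK to untreated pileup over background at these 10 sites was between 0.807 and 1.26.

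**Figure D3:**
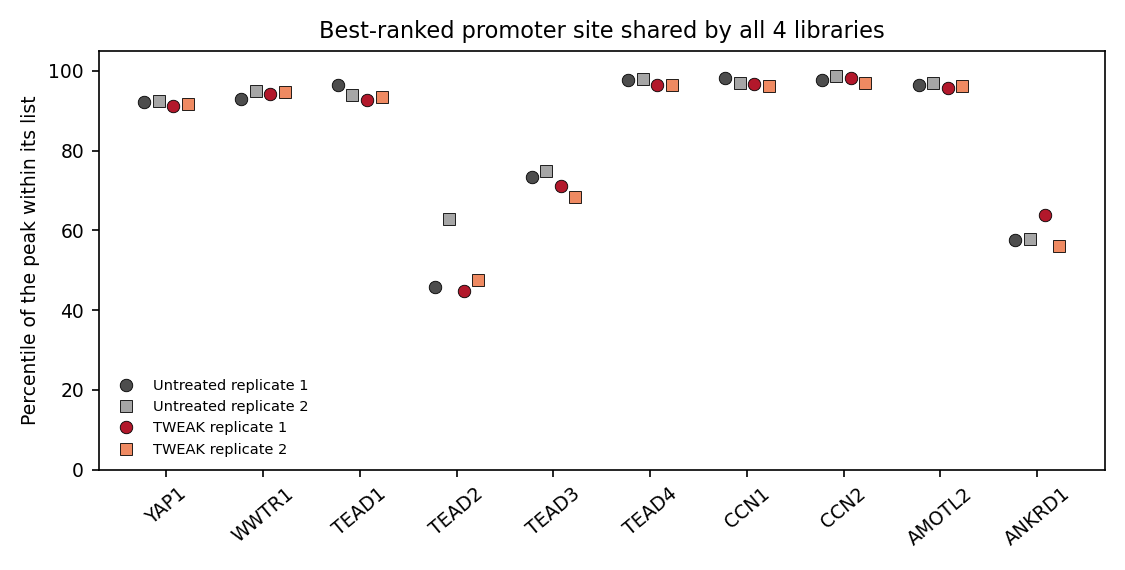
Percentile within its own list (y axis, 100 the strongest peak) of the best-ranked shared promoter site of each gene, with 1 point per library. CCN1, CCN2, AMOTL2 and TEAD4 lie above 95 in all 4 libraries, whereas TEAD3, ANKRD1 and TEAD2 lie between 44.9 and 74.8.

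YAP1 and WWTR1 encode the co-activators. YAP1 (hg38 chr11:102110447-102233424) had 45 sites, with 20 shared, 2 gained and 2 lost. On both scales, 6 of its 20 shared sites (30%) were higher and 1 (5%) was lower, against 15.7% and 12.2% of all shared sites; the counts of the other genes stand against the same shares. A second promoter site, 389 bp before a YAP1 start, was among the higher ones, with percentiles of 83.1 and 82.2 without TWEAK and 86.8 and 85.5 with it, and a relative ratio of 1.32. The groups at that site did not overlap, whereas the main YAP1 promoter peak was lower in both TWEAK lists by percentile and overlapped by pileup over background, at 51.4 ± 4.49 without TWEAK and 54.4 ± 6.55 with it (SD, n = 2 each). Both lost sites of YAP1 were weak peaks at a start at the 3′ part of the gene, with pileups of 9 to 14.

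The YAP1 window also holds BIRC3, an NF-kB-induced inhibitor of apoptosis, and 3 of the 6 higher sites had YAP1 as their nearest coding gene. Both gained sites of the YAP1 window had BIRC3 as the nearest gene, with pileups of 25 and 12 at one and 13 and 13 at the other. They lay 172 and 708 bp from the nearest untreated peak, which belonged to the BIRC3 promoter site present in all 4 libraries. A shared site 79.4 kb from a YAP1 start, also nearest to BIRC3 and chosen after its values were seen, had percentiles of 79.4 and 80.4 without TWEAK and 89.9 and 91.5 with it. Its pileup over background was 23.2 ± 2.02 and 52.0 ± 9.12 (SD, n = 2 each), a relative ratio of 2.04. The shared site at the BIRC3 promoter, chosen likewise, had percentiles of 97.7 and 97.9 without TWEAK and 98.7 with it in each library, and a pileup over background of 92.9 ± 10.3 and 121 ± 8.76 (SD, n = 2 each), a relative ratio of 1.18. The best distal site of each gene was taken as the one whose lowest percentile over the libraries was highest. In the YAP1 window this site, 41.8 kb from a YAP1 start at chr11:102268510-102269039, had percentiles of 98.6 and 98.9 without TWEAK and 98.4 and 98.2 with it, so it ranked above the BIRC3 promoter site in the untreated lists and below it in the TWEAK lists.

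WWTR1 (chr3:149517235-149736714) had 57 sites, 3 of them gained and none lost. One gained site was strong, meaning above the 50th percentile in both lists that had it, and it had no untreated peak within 2908 bp. This site, the WWTR1 intronic sequence printed above with 2 NF-kB matches, lay at chr3:149551425-149551927, 9.24 kb before an internal start of the gene. Its TWEAK percentiles were 76.6 and 80.3 and its pileup was 58 in each TWEAK library. It was the only strong gained or lost site among the 489 that had no peak of a library lacking it within 500 bp. Of the 29 shared WWTR1 sites, none was higher and 5 (17.2%) were lower on both scales, against 15.7% and 12.2% of all shared sites. The largest of those differences was in an intron 16.1 kb before a start, with percentiles of 55.3 and 48.9 without TWEAK and 29.2 and 17.9 with it. A weaker WWTR1 promoter site was lower as well, at 67.2 and 72.6 without TWEAK and 48.6 and 51.2 with it, a relative ratio of 0.602. The best distal site of the window was the promoter of RNF13, at percentiles of 95.0 to 96.1.

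The TEAD genes encode the DNA-binding partners. TEAD1 (chr11:12674421-12944737) had 41 shared sites, of which 4 were higher and 6 lower on both scales. The site 42.8 kb before its first start had percentiles of 77.5 and 75.8 without TWEAK and 42.8 and 47.4 with it, the largest downward gap near the 10 genes. Its pileup over background was 19.7 ± 0.0782 in untreated and 8.75 ± 2.17 in TWEAK libraries (SD, n = 2 each), 2.48 times lower with TWEAK relative to the shift of all shared sites. As the site was chosen by its percentile gap, this is a description.

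TEAD1 also had a strong lost and a strong gained site, both beside shared peaks. The lost site, in an intron at chr11:12724669-12725174, had percentiles of 94.3 and 96.8 and pileups of 206 and 189 in the untreated lists. Shared sites flanked it at 400 and 459 bp. The nearer of these had percentiles of 97.8 and 98.2 without TWEAK and 97.7 and 98.1 with it, and the other 86.4 and 86.6 without and 82.2 and 77.9 with it. The gained site, 89.5 kb downstream of a start and nearest to RASSF10, had percentiles of 87.3 and 83.9 and lay 41 bp from a shared site of 97.8, 98.1, 96.7 and 95.9. At both places a neighbouring site of higher percentile was present in all 4 libraries. The best distal site of TEAD1, in an intron 21.6 kb after a start, lay at 98.6, 98.9, 97.9 and 98.1.

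TEAD2 (chr19:49340595-49362457) lies among many short genes, and it was the nearest coding gene of only 4 of its 44 sites. Its strong gained site at chr19:49443547-49444048, nearest to SLC17A7, carries a TEAD match, and its sequence is printed above. This site had percentiles of 96.6 and 94.5 and pileups of 214 and 136 in the TWEAK lists. It lay 230 bp from a shared site that was lower with TWEAK on both scales, at 97.7 and 97.5 without and 96.4 and 94.8 with it, and 156 bp from a weak lost site of 23.7 and 16.0. A shared site at the SLC17A7 promoter had percentiles of 40.2 and 43.8 without TWEAK and 21.4 and 12.3 with it. On both scales, 4 of the 23 shared sites of TEAD2 were lower and none higher. The best distal site, the promoter of PIH1D1, was at 97.9, 97.7, 97.5 and 96.8.

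TEAD3 (chr6:35473597-35497079) had 19 shared sites, with 2 higher and 2 lower on both scales. TEAD3 was the nearest coding gene of 13 of its 51 sites, and of none of these higher or lower ones. Its strong lost site was in an intron of RPL10A at chr6:35470317-35470851, with percentiles of 78.9 and 83.9 and pileups of 76 and 67 in the untreated lists. A weak site with a peak in untreated replicate 2 and both TWEAK lists lay 124 bp away, and a shared site of percentiles 82.0 to 87.7 lay 217 bp away. The best distal TEAD3 site, in an intron 10.5 kb after the start, lay at 95.5, 95.2, 94.2 and 93.6. TEAD4 (chr12:2959330-3040676) had 23 shared sites, with 2 higher and 3 lower, of which 1 higher and 1 lower had TEAD4 as the nearest coding gene. Its site 37.3 kb from a start, nearest to TSPAN9, was among the 5 largest upward gaps, at 30.3 and 22.8 without TWEAK and 57.0 and 47.4 with it. That site had pileups of 17 and 10 without and 28 and 19 with TWEAK, and a relative ratio of 2.07. A pair of other TEAD4 promoter sites lacked a peak in TWEAK replicate 1 and had one in each of the other libraries. One of them had pileups of 159 and 126 in the untreated libraries and 98 in TWEAK replicate 2. The nearest peak of TWEAK replicate 1, that of the best-ranked TEAD4 promoter site, lay 977 bp from one and 195 bp from the other. The best distal TEAD4 site, the promoter of TULP3, was at 98.2, 98.1, 97.5 and 97.9.

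CCN1 and CCN2 encode matricellular proteins secreted into the matrix. CCN1 (chr1:85580761-85584589) had 32 sites, none gained and 1 lost. Its main promoter peak was lower in both TWEAK lists on both scales, with a pileup over background of 91.1 ± 4.83 without TWEAK and 84.7 ± 2.71 with it (SD, n = 2 each), a relative ratio of 0.847. The CCN1 downstream site printed above, 30.6 kb after a start at chr1:85611836-85612347, went the other way. It had percentiles of 76.9 and 80.7 without TWEAK and 94.5 and 93.2 with it. Its pileups were 69 and 56 without and 172 and 122 with TWEAK, and its relative ratio was 2.70. This site ranked sixth among the upward gaps and was chosen for description after its values were seen. A second CCN1 promoter site, 56 bp before a start, lacked a peak in untreated replicate 1 alone and lay 134 bp from a peak of that library. Its percentiles were 89.4 in untreated replicate 2 and 86.8 and 89.6 in the TWEAK lists. In all, 2 of the 17 shared CCN1 sites were higher and 3 lower on both scales.

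CCN2 (chr6:131948176-131951372) had 26 sites, of which 12 were shared, 1 gained and 3 lost. All of its gained and lost sites were weak, with pileups of 12 to 21. The CCN2 upstream site with adjoining TEAD and AP-1 matches had percentiles of 98.4 and 97.7 without TWEAK and 97.5 and 97.7 with it, and the groups overlapped. The CCN2 promoter, with 3 TEAD matches, had a pileup over background of 102 ± 22.5 without TWEAK and 97.7 ± 5.74 with it (SD, n = 2 each), a difference smaller than the spread between the untreated replicates. On both scales, 1 shared site was higher and 2 were lower, none of them with CCN2 as the nearest coding gene. The 2 lower ones were nearest to ENPP1.

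AMOTL2 (chr3:134355347-134375479) encodes an angiomotin that binds YAP in the cytoplasm. It had 69 sites, 38 of them shared, and 9 shared sites were higher and 3 lower on both scales. The 4 largest upward percentile gaps near the 10 genes were all in the stretch beyond the 3′ end of AMOTL2. The first, at chr3:134317379-134317954, had percentiles of 35.6 and 46.5 without TWEAK and 80.0 and 77.4 with it. Its pileups were 19 and 16 without and 68 and 51 with TWEAK, and its pileup over background was 6.23 ± 1.32 and 26.7 ± 1.26 (SD, n = 2 each). At a relative ratio of 3.91, it was the largest upward difference of the 228 shared sites, and it held none of the 3 motifs.

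The second AMOTL2 site, at chr3:134325639-134326189, had percentiles of 38.0 and 37.4 without TWEAK and 73.6 and 66.8 with it, a relative ratio of 3.02. The third, at chr3:134314238-134315488, was weak in all libraries, at 15.1 and 16.0 without TWEAK and 38.1 and 40.5 with it, with pileups of 9 to 17. Neither the second nor the third site held a motif match. The fourth is the downstream sequence printed above with a TEAD and an AP-1 match. It had percentiles of 61.1 and 60.6 without TWEAK and 84.1 and 79.9 with it, pileups of 37, 24, 84 and 57, and a relative ratio of 2.72. These sites were chosen by their percentile gap, so the lack of overlap between the groups follows from the choice. Seen together after the values were known, 8 of the 19 shared sites beyond the 3′ end of AMOTL2 were higher on both scales and 1 was lower, against 15.7% and 12.2% of all shared sites; the higher ones lay between 2.64 and 43.4 kb from the gene end. Within the gene none of 11 was higher and 2 were lower, and before its 5′ end 1 of 8 was higher and none lower.

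The best-ranked promoter and distal sites of AMOTL2 overlapped between the groups by pileup over background, while by percentile that promoter site was lower in both TWEAK lists. The upstream site 6.58 kb before the 5′ end, printed above with its TEAD match, had the highest lowest percentile of all distal sites near the 10 genes, at 98.9, 98.9, 99.0 and 98.7 in the 4 libraries. Another AMOTL2 site, 15.8 kb after a start, overlapped it in range, at 98.4, 99.2, 99.0 and 98.7. A second, weaker AMOTL2 promoter site was lower on both scales, at 67.2 and 72.0 without TWEAK and 60.2 and 49.4 with it, a relative ratio of 0.701. A weak promoter site 183 bp before a start was gained, at 21.4 and 17.9 in the TWEAK lists, 161 bp from an untreated peak. A site in an intron 1.45 kb after a start was among the 5 largest downward gaps, at 55.3 and 48.9 without TWEAK and 32.5 and 27.3 with it. The strong gained site of AMOTL2, at chr3:134358403-134359458, overlapped an exon, with percentiles of 66.9 and 54.5 and pileups of 39 and 23. It lay 99 and 115 bp from shared sites on its sides.

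**Figure D4:**
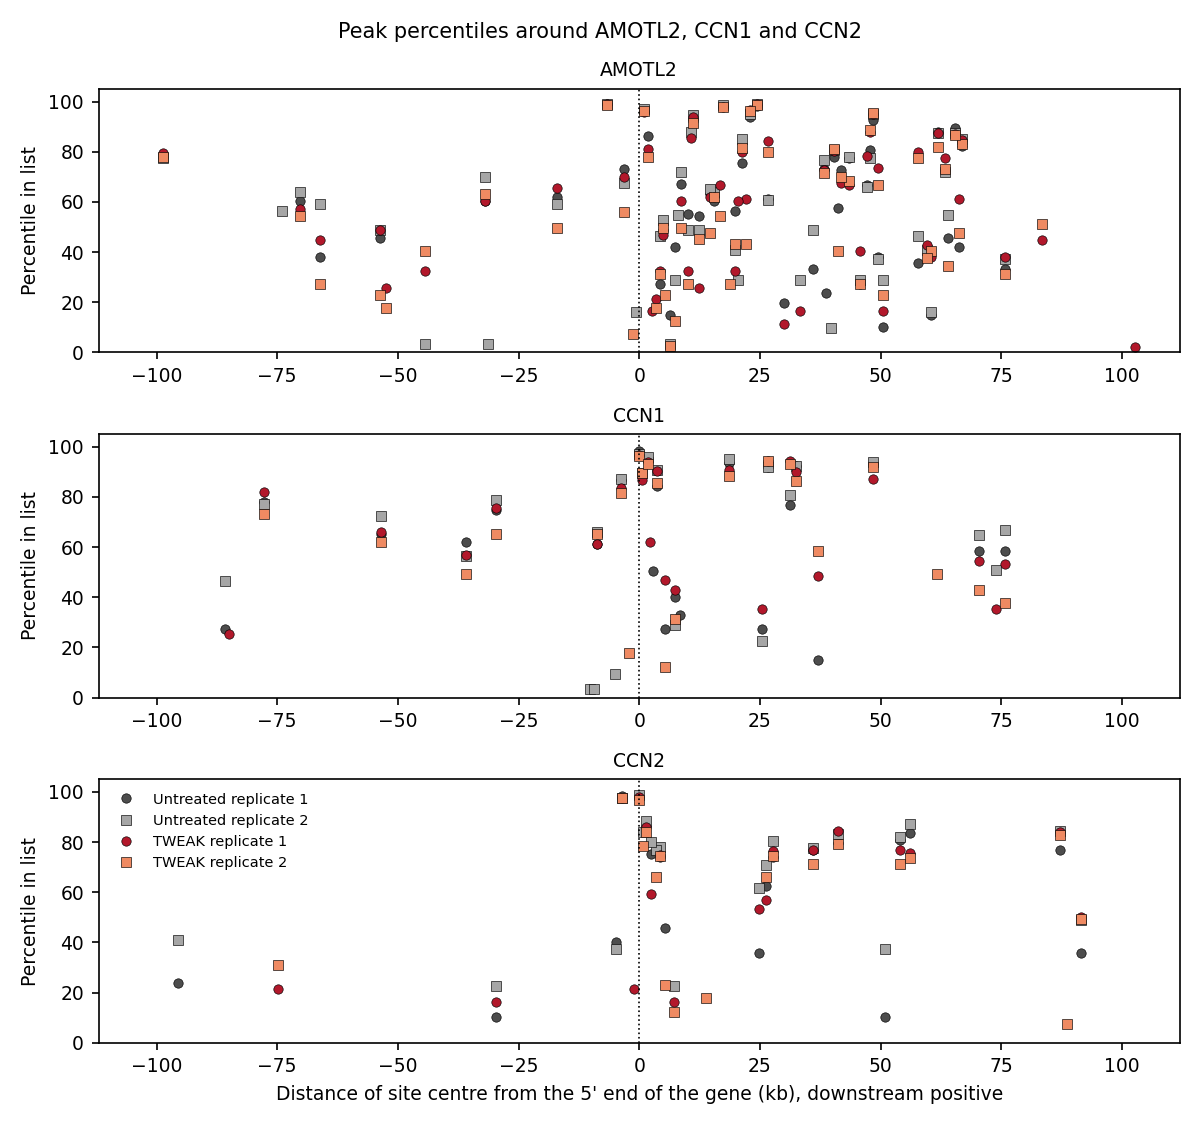
Percentile of each peak within its list (y axis) against the distance of the site from the 5′ end of the gene in kb, downstream positive (x axis), for AMOTL2, CCN1 and CCN2, with 1 point per library. In AMOTL2, TWEAK points stand above untreated points at several sites 26.7 to 60.5 kb downstream, and in CCN1 at the site 31.3 kb downstream, and the best-ranked promoter sites lie above 95 in all 4 libraries.

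ANKRD1 (chr10:90912096-90921087) encodes an ankyrin-repeat protein of the muscle sarcomere and nucleus. It had the fewest sites, 11, with 6 shared and none gained or lost. At its promoter, with 2 TEAD matches, the groups overlapped by percentile but not by pileup over background, which was 9.52 ± 0.454 without TWEAK and 13.1 ± 0.211 with it (SD, n = 2 each), a relative ratio of 1.26. The site 9.32 kb after its start was lower with TWEAK, at 66.6 and 64.0 without and 44.9 and 47.4 with it, a relative ratio of 0.661. The best distal site of the window was the promoter of RPP30, at 84.6, 86.9, 87.1 and 84.7.

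**Figure D5:**
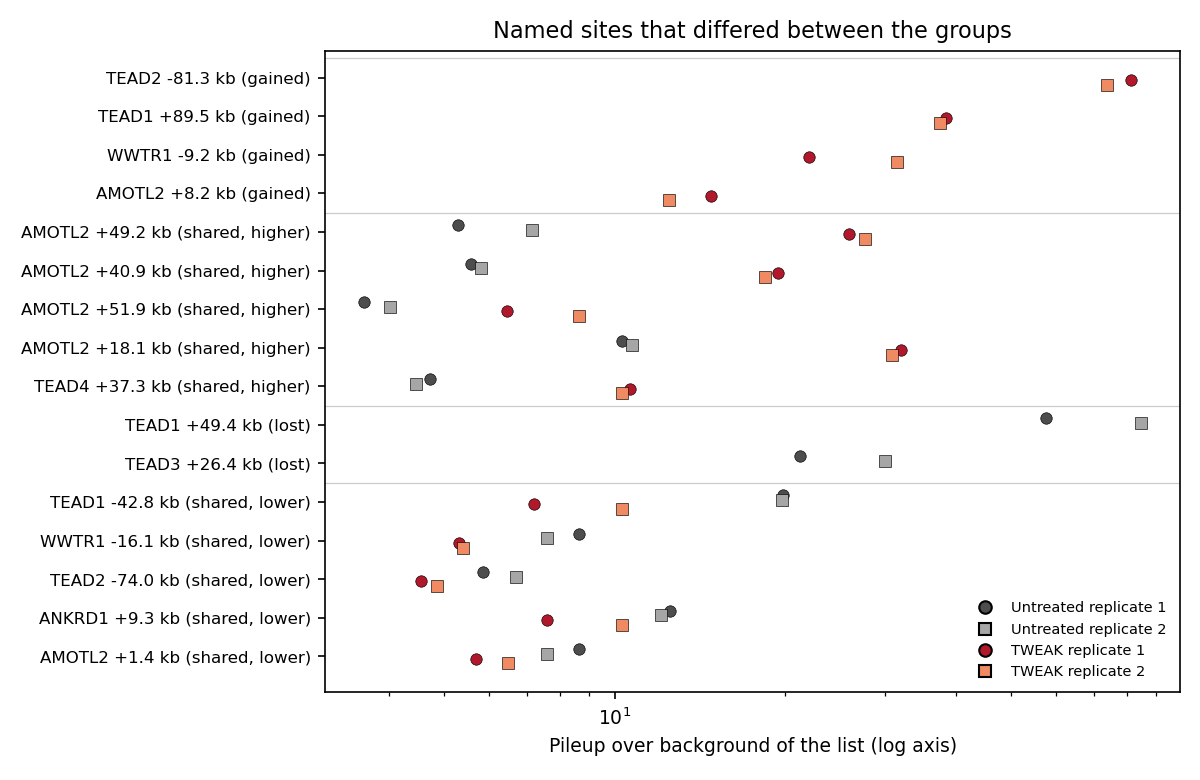
Pileup over background on a log axis (x axis) at the strong gained and lost sites and at the 5 shared sites with the largest upward and the 5 with the largest downward percentile gap (y axis, distance from the nearest start of the gene), with 1 point per library. A library without a peak has no point; at the 10 shared sites the 2 TWEAK points lie wholly to 1 side of the 2 untreated points.

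Other members of the pathway were counted from lists. The 18 upstream genes (kinases such as STK3, LATS1 and LATS2, scaffolds and inhibitors such as VGLL4) had 890 sites, of which 23 were gained and 25 lost. Among these genes, 6 had more gained than lost sites, 4 had more lost and 8 had equal numbers. STK3, WWC1 and FRMD6 had 3 gained sites each, and TAOK1 and AMOTL1 had the most lost, 7 and 4. The 15 further targets had 722 sites, of which 32 were gained and 24 lost, with more gained in 9 genes, more lost in 5 and equal numbers in 1. NUAK2, a stress-activated kinase, had 6 gained and 2 lost sites, and CRIM1 and IGFBP3 had 5 gained each, against 1 and 3 lost. ARHGEF17 and RBMS3 had 5 lost each, against 0 and 4 gained. Of the 10 genes themselves, 2 had more gained sites, 5 more lost and 3 equal numbers. The gained share was 2.58% for the upstream list and 4.43% for the further targets, on either side of the background of 3.6%. The lost share was 2.81% and 3.32%, against 3.79% of all sites.

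Motifs were counted in the 201 bp around the best-ranked peak of each site, on both strands. The TEAD motif was in 83 of the 489 sites (17.0%), against 15.6% of all sites, the AP-1 motif in 47 (9.61%), against 9.01%, and the NF-kB consensus in 33 (6.75%), against 6.21%. CCN2 had the largest share of TEAD matches among the 10 genes, 8 of 26 sites (30.8%), followed by AMOTL2 with 18 of 69 (26.1%). The smallest shares were 1 of 11 (9.09%) for the target gene ANKRD1, 4 of 45 (8.89%) for YAP1 and 3 of 51 (5.88%) for TEAD3. Of the 26 sites that were higher on both scales, 8 (30.8%) held the TEAD motif, 6 (23.1%) the AP-1 motif and 3 (11.5%) the NF-kB consensus, against 20.0%, 22.1% and 12.7% of all higher sites. Of the 30 lower sites, 6 (20.0%) held the TEAD motif, 3 (10.0%) the AP-1 motif and 2 (6.67%) the NF-kB consensus, against 19.2%, 4.78% and 3.03% of all lower sites. Of the 16 gained sites, 3 (18.8%) held the NF-kB consensus, 2 (12.5%) the TEAD motif and 1 (6.25%) the AP-1 motif, against 20.1%, 18.2% and 16.6% of all gained sites. Of the 19 lost sites, 2 (10.5%) held the TEAD motif and none the AP-1 motif or the NF-kB consensus, against 15.4%, 4.90% and 4.28% of all lost sites. A match is a stretch of letters and was not tested as a bound site.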

How the data were processed

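ATAC-seq maps open chromatin by the insertion of adaptors with the Tn5 transposase. Per the methods, the authors trimmed adaptors (Trimmomatic), aligned reads to hg38 (Bowtie2), discarded mitochondrial reads (Bamtools) and duplicates (Picard), and called peaks for each library (MACS2). Versions, settings and any shift of reads for the transposase are not given in the sources used here. The deposited lists hold peaks of 501 bp after removal of blacklisted regions and a value with no name, which was read as the −log10 of an uncorrected p-value computed by the authors. In each of the 4 lists, 100% of these values equalled Poisson tails of whole-number pileups against 1 background per list, within a relative error of 1e-05, which gave the pileups; the other convention for the tail would shift each pileup by 1. The value grows with depth, so percentiles within a list were the main measure. Total reads per library are unknown, and the background pileup stands for depth.

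Peaks were read with Python 3.11.15, numpy 2.4.6, pandas 2.3.3 and scipy 1.17.1, after a check on simulated data. All 55 sequence names of the lists were found in the hg38 reference, and 0 peaks ran past an end. Groups came from the treatment labels and replicate numbers from the titles. The 2 groups of 2 libraries were compared by exact two-sided permutation tests, and p-values measure the spread between libraries only. A read-based differential test such as DiffBind was not possible from peak lists. The genes and lists were chosen with earlier results of these data known. All 10 genes were named, with their promoter sites, best distal site, gained and lost sites above the 50th percentile, and the 5 largest upward and downward gaps of shared sites; promoter sites of lower rank were summarised.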

Additional observations from a re-analysis of the deposited data

How the results depend on the processing

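The median percentile difference of shared sites was below 0 under all settings but 1, and no setting of a test reached a p under 0.333. By pileup over background it was 2.0 in the other direction, with 68 sites higher and 30 lower. Within 50 kb, 7 sites were gained, 9 lost and 58 lower by percentile, and with one start site per gene 10 were gained. With lists of equal length 41 sites were higher. Without sites that had a neighbouring peak within 500 bp, 7 were gained and 12 lost. In alternatives added after the data were seen, sites whose nearest coding gene was one of the 10 gave 9 gained, 9 lost and 56 lower, and joining peaks up to 500 bp apart gave 7 gained and 11 lost. Leaving out 1 library, which eases each call, gave 28 to 42 gained, 36 to 77 lost, 36 to 68 higher and 111 to 146 lower sites, a median difference of -4.49 to -0.674 and a share difference of -0.00616 to 0.00176 percentage points. The share difference turned positive without untreated replicate 2 (0.000672) or TWEAK replicate 1 (0.00176). Leaving out untreated replicate 1, untreated replicate 2, TWEAK replicate 1 and TWEAK replicate 2 in turn gave 28, 34, 36 and 42 gained, 77, 45, 41 and 36 lost, 46, 68, 36 and 65 higher, and 145, 111, 146 and 111 lower sites. The cause was not tested. A value threshold of 5 and an overlap of 250 bp moved no count by more than 1.5 times. The order of gained and lost counts was not stable, at 16 and 19 in the main setting, 18 and 15 with the threshold, and 20 and 16 with lists of equal length. With the threshold and with equal lists the median difference was -0.711 and -0.790.

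Replicate numbers were not shown to pair the libraries: deviations of same-numbered libraries correlated at -0.00607 over 131751 shared sites and 0.0556 over the 228 near the 10 genes. A replicate block cannot change the mean difference, -0.00220 percentage points for the share and -2.57 for the median, as each number occurs once per group. The smallest possible p with it is 0.5. Under the block, 34 sites were higher and 102 lower.

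The lists show only peaks above a p-value limit that differed in pileup between libraries, and 2 libraries per group limit all statements.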

Other observations

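Beyond the 10 genes, the TEAD motif was in 16 of the 58 sites (27.6%) near upstream Hippo genes that were higher with TWEAK on both scales and in 5 of the 53 lower ones (9.43%). Near the further targets it was in 16 of 69 higher sites (23.2%) and 11 of 48 lower ones (22.9%). These TEAD shares stand beside 20.0% of all higher and 19.2% of all lower sites. The contrast near the upstream genes was not particular to TEAD. There the AP-1 motif was in 11 higher (19.0%) and 2 lower sites (3.77%), against 22.1% and 4.78% of all. The NF-kB consensus was in 5 (8.62%) and 1 (1.89%), against 12.7% and 3.03% of all. The lists were chosen with earlier results known, so all of these are descriptions without a test.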
